A study of Mus musculus with 4 samples.

Results

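The collagen genes of epididymal adipose tissue were compared after weight cycling and after uninterrupted high-fat feeding in mice. A gene was taken as a collagen where its symbol was Col, a type number, the letter a and a chain number, which selected 44 of the 24421 genes in the expression matrices. Epididymal adipose tissue is a visceral fat depot of male mice, and the study asked what a transient period of weight loss does to it when high-fat feeding is resumed. All animals were wild-type (WT) male C57BL/6J mice. The control group, Ctrl, was put on a high-fat diet (HFD) at 10 weeks of age and stayed on it for 14 weeks without a break. The weight-cycling group, WC1, started HFD at 8 weeks of age, received it for 8 weeks, was switched to standard diet (SD) for 2 weeks and returned to HFD for 6 weeks. The time on HFD thus added up to 14 weeks in either group, the mice ended at the same age of 24 weeks, and no lean group entered the comparison. Poly(A) RNA was sequenced in 2 libraries per group, and the 4 libraries held between 61465029 and 90965297 counted reads. The labels do not say how many mice stood behind each library, so the p-values below measure only the spread between these libraries, which may be technical. Values are CPM (reads of a gene scaled to a common library size) where a gene was compared between groups and TPM, which is scaled for transcript length as well, where genes were compared with each other.

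Collagens are secreted proteins in which 3 chains wind into a triple helix, and the helix can form only where glycine recurs at a fixed interval, so that each chain is written as a run of Gly-X-Y triplets. Fibrillar collagens (here types I, III and V) build the tensile fibers of connective tissue and of scar. Type IV forms the sheet of the basement membrane that wraps each adipocyte and blood vessel, with types XV and XVIII attached to it, type VI forms beaded filaments close to the cell surface, and the FACIT collagens (fibril-associated collagens with interrupted triple helices) decorate the fibrils. In obese adipose tissue the deposition of fibrillar and type VI collagen is known as adipose fibrosis, and mesenchymal cells of the stroma are the usual source of the fibrillar chains.

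The coding sequences show the structural difference on which the classes rest. In the GENCODE models on GRCm38, the genome build that mm10 denotes, the longest unbroken run of triplets that begin with a glycine codon (GGN) was between 337 and 344 triplets in the 6 chains of types I, III and V. It was between 30 and 66 triplets in the 8 basement membrane chains, which held from 9 to 24 separate runs of at least 6 triplets, between 37 and 87 triplets in the 6 type VI chains and between 32 and 113 triplets in the 9 FACIT chains. A fibrillar helix is pieced together from many short exons, and exons of exactly 54 bases made up between 42.9% and 49.0% of the internal coding exons of the types I, III and V chains but only between 2.2% and 7.7% of those of the basement membrane chains. To let the repeat be read directly, 1 exon of 54 bases, which holds 6 triplets, is shown for chains whose values are described below, 5′ to 3′ on the coding strand, with the glycine codon that opens each triplet in capitals. The exons lie at chr1:45325360-45325413, plus strand, for Col3a1, at chr9:20801068-20801121, minus strand, for Col5a3, at chr8:11245211-11245264, minus strand, for Col4a1, at chr10:76719623-76719676, minus strand, for Col6a1, at chr9:79614349-79614402, minus strand, for Col12a1, and at chr6:8166662-8166715, minus strand, for Col28a1.
Col3a1: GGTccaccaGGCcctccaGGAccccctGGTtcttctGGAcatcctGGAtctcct
Col5a3: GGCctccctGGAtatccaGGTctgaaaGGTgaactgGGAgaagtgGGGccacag
Col4a1: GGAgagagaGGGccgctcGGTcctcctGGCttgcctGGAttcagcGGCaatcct
Col6a1: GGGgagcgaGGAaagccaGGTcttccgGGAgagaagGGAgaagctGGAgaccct
Col12a1: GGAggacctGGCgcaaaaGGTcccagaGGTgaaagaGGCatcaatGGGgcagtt
Col28a1: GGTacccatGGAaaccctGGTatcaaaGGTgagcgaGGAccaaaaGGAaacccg

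Of the 44 collagens, 35 reached at least 0.5 CPM in at least 2 libraries and were tested. In the limma fit across all 14106 genes tested, with Benjamini-Hochberg adjustment over all of them, 5 collagens were called higher in WC1 at an adjusted p under 0.05 (Col12a1, Col28a1, Col4a3, Col5a3 and Col23a1) and 1 was lower (Col8a2). That is 17.1% of the collagens tested, against 17.9% of all genes tested, so collagens passed the test about as often as other genes did. The median log2 fold change was 0.09 over the collagens and -0.02 over all genes tested. The values of WC1 and Ctrl did not overlap in 25 of the 35 collagens, 16 of them higher and 9 lower, which is 71.4% against 69.3% of all genes. At an unadjusted p under 0.05 the number of collagens was 17, beside 37.8% of all genes. Calls by edgeR and DESeq2 cover 17.6% and 27.4% of all genes. Both tools called the same collagens as limma and further ones. edgeR called Col5a1 and Col6a1 higher in addition, and Col24a1 lower. DESeq2 called Col4a1, Col4a2, Col4a4, Col5a1, Col6a1, Col6a2 and Col14a1 higher in addition, and Col8a1, Col24a1 and Col27a1 lower. Without Ctrl 1 or without Ctrl 2, which leaves 1 library in that group and assumes that it varies like the others, hardly any gene passed, 6 and 12 of the 14106, and none of the 35 collagens. At an unadjusted p under 0.05 there were then 6 collagens in each case, beside 18.6% and 22.1% of all genes (limma). Without WC1 1, 13 collagens were called higher and 5 lower, beside 36.7% of all genes, and without WC1 2, 9 higher and 2 lower, beside 18.8%.

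**Figure D1:**
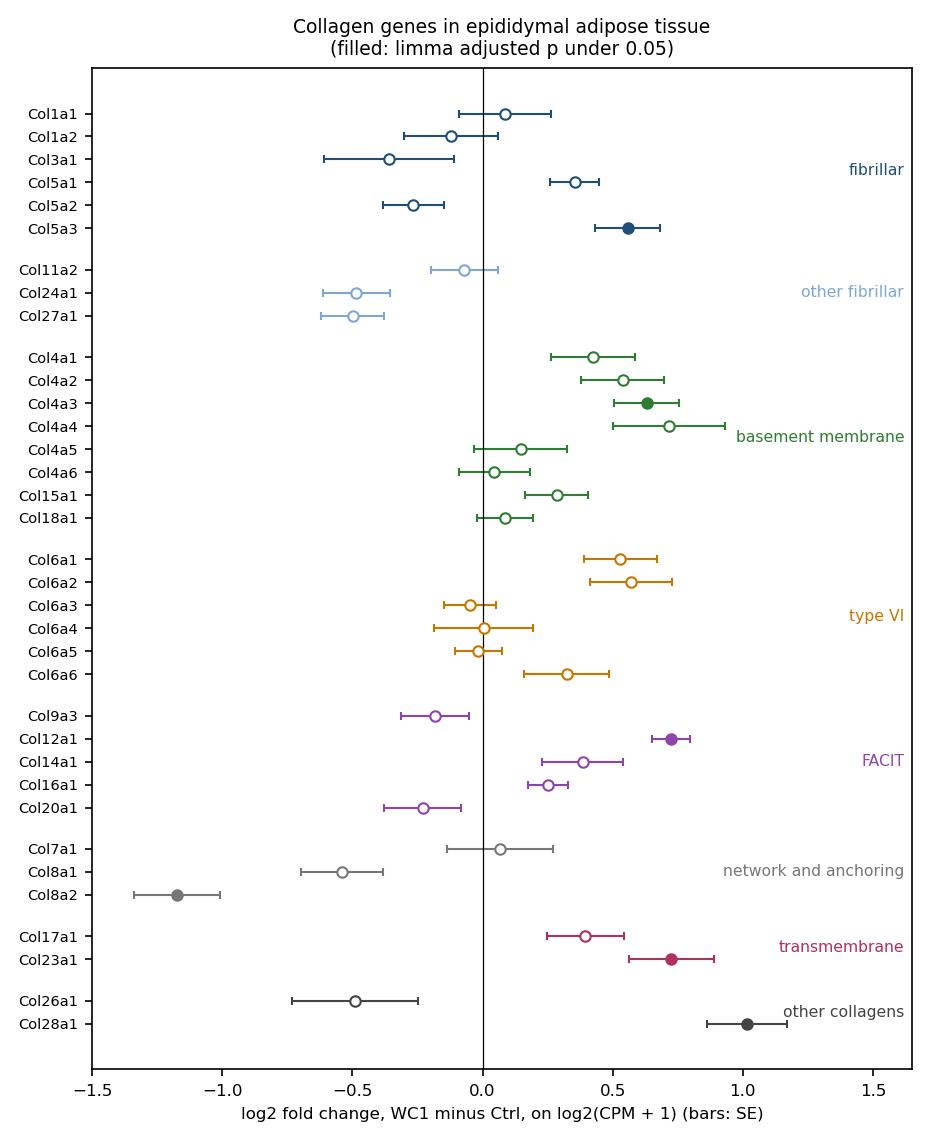
Log2 fold change of each tested collagen gene, WC1 minus Ctrl on log2(CPM + 1), with its standard error as a bar, grouped by class and with filled points for limma adjusted p under 0.05. The filled points are Col5a3, Col4a3, Col12a1, Col23a1 and Col28a1 to the right of 0 and Col8a2 to the left, at -1.18.

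Fold changes were computed on log2(CPM + 1), which understates the change of genes near 1 CPM. In bulk tissue, fewer cells of a type and less RNA per cell cannot be told apart. The cell type markers, chosen by hand, moved between the groups as well. Of 12 markers each, 9 adipocyte, 8 endothelial and 7 pericyte and smooth muscle genes were higher in WC1, with medians of 1.03, 1.01 and 0.84, whereas 4 macrophage and 5 fibroblast and progenitor genes were lower, with medians of -0.87 and -0.37. None of these markers was at 0 in every library, and the share of all genes called was 10.2% for higher and 7.71% for lower. Of 10 epididymis epithelium genes, 7 were at 0 in every library and their sum did not exceed 3.36 CPM. The lists of mesothelial, Schwann cell and T and NK cell genes held no gene called by limma, edgeR or DESeq2 (0, 0 and 2 genes at an unadjusted p under 0.05 in limma). B cell genes summed to 66.9 CPM in WC1 2 and to at most 15.3 CPM in the others, with 1 of 5 tested genes higher. Skeletal muscle genes had 2 of 5 higher and brown adipocyte genes 1 higher and 1 lower of 6. The part of these cell types in the collagen values was not tested.

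Types I and III, the bulk of fibrous matrix, did not differ beyond the spread between libraries. Col1a1 and Col1a2 encode the chains of type I collagen and Col3a1 the single chain of type III, which forms mixed fibrils with type I in soft tissue. Col1a1 was at 1146 and 1089 CPM in Ctrl against 1378 and 1022 CPM in WC1. The groups overlapped, with the highest value in WC1 1 and the lowest in WC1 2, and the log2 fold change was 0.09 ± 0.18 (SE, adjusted p = 0.75, limma). Col1a2 was at 1715 and 1661 CPM in Ctrl against 1784 and 1351 CPM in WC1, again with the WC1 libraries on either side of the controls (-0.12 ± 0.18, adjusted p = 0.66, limma). Col3a1, the most abundant collagen in every library, was at 5412 and 5114 CPM in Ctrl against 4719.8 and 3556 CPM in WC1. Both WC1 libraries lay below both controls, WC1 2 by far the most, and the difference of -0.36 ± 0.25 was within the spread (adjusted p = 0.34, limma). It passed only without WC1 1, at -0.57 (adjusted p = 0.028, limma).

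The balance of type III to type I lay apart between the groups. Per unit length, the ratio of Col3a1 to Col1a1 TPM was 3.99 and 3.96 in Ctrl against 2.89 and 2.94 in WC1. The libraries of each group lay close together and the groups lay apart, although Col1a1 itself ranged widely between the WC1 libraries. The ratio of Col1a1 to Col1a2, whose chains assemble as a pair of the first to a single copy of the second, was 0.732 and 0.718 in Ctrl against 0.845 and 0.828 in WC1. A ratio within a library does not depend on how the library was scaled, and the exact two-sided permutation test gave p = 0.333 for both, the smallest value that 2 libraries against 2 allow.

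Type V, the minor fibrillar collagen that is built into type I fibrils and sets their diameter, had chains on either side of the controls. Col5a3, a chain found in fewer tissues than the other type V chains, was at 621 and 679 CPM in Ctrl against 887 and 1031 CPM in WC1, 47.5% higher in the WC1 mean. Both WC1 libraries exceeded both controls and the log2 fold change was 0.56 ± 0.13 (adjusted p = 0.043, limma). Without a filter on low values it did not pass (adjusted p = 0.075, limma). Col5a1 was at 485 and 526 CPM in Ctrl against 641 and 651 CPM in WC1, without overlap, and just missed the threshold in the main fit (0.35 ± 0.09, adjusted p = 0.061, limma). It was called higher by edgeR, by DESeq2, with quantile normalization and on the TPM matrix. Col5a2 lay below the controls, at 563 and 543 CPM in Ctrl against 504 and 419.8 CPM in WC1 (-0.27 ± 0.12, adjusted p = 0.17, limma). In TPM the ratio of Col5a3 to Col5a2 was 1.20 and 1.36 in Ctrl against 1.91 and 2.67 in WC1, and that of Col5a1 to Col5a2 was 0.677 and 0.763 in Ctrl against 1.001 and 1.22 in WC1. Neither ratio overlapped between groups (exact two-sided permutation test, p = 0.333 each), so that Col5a2 was the leading one of Col5a1 and Col5a2 in Ctrl and not in WC1. Col5a2 lies beside Col3a1 on chromosome 1, tail to tail and 24614 bases apart, and both were on the lower side in WC1. Over the 6 chains of types I, III and V the median was -0.02, but above 0 with median-of-ratios scaling, edgeR, DESeq2 and the TPM matrix. Of the 6, limma called 1, edgeR 2 and DESeq2 2, beside 17.9%, 17.6% and 27.4% of all genes. Of the other fibrillar chains, Col27a1 and Col24a1 lay lower without overlap, at -0.50 and -0.49 (adjusted p = 0.051 and 0.059, limma), and Col11a2 overlapped. None of these 3 was called by limma, 2 had an unadjusted p under 0.05, edgeR called 1 and DESeq2 called 2.

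**Figure D2:**
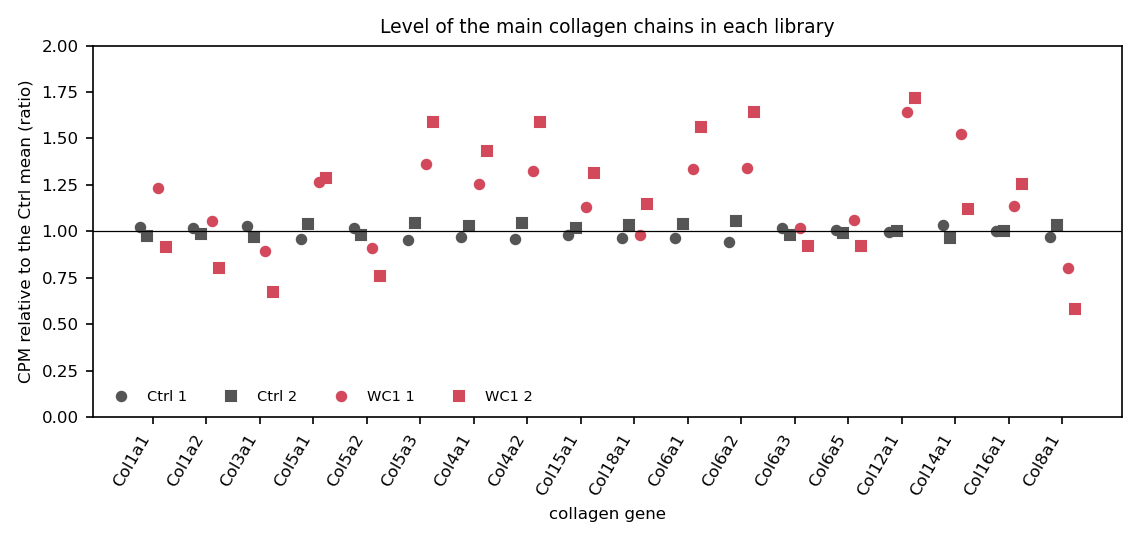
CPM of 18 collagen chains in each library, divided by the mean of the Ctrl libraries, with grey for Ctrl, red for WC1, circles for replicate 1 and squares for replicate 2. Col4a1, Col4a2, Col6a1, Col6a2, Col5a3 and Col12a1 lie above the controls in both WC1 libraries, Col1a1 and Col1a2 have the WC1 libraries on opposite sides, and Col3a1, Col5a2 and Col8a1 lie below.

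The median log2 fold change of the basement membrane collagens was 0.35 over 8 chains. Of these, 5 were higher without overlap and none lower, beside 32.7% and 36.6% of all genes tested. By limma 1 of the 8 was called, or 12.5% against 17.9% of all genes, by edgeR 1 and by DESeq2 4, beside 17.6% and 27.4% of all genes. The main chains, Col4a1 and Col4a2, which assemble together into the network found in every basement membrane, were both higher in each WC1 library than in each control. Col4a1 was at 1843 and 1955 CPM in Ctrl against 2382 and 2721 CPM in WC1 (0.42 ± 0.16, adjusted p = 0.13, limma) and Col4a2 at 1277 and 1392 CPM in Ctrl against 1767 and 2122 CPM in WC1 (0.54 ± 0.16, adjusted p = 0.075, limma). WC1 2 was the highest for both. On the TPM matrix both passed, at 0.56 and 0.68 (adjusted p = 0.038 and 0.036, limma), but the median of all genes stood 0.12 higher in TPM than in CPM. Relative to the TPM median of all genes the values were 0.46 and 0.58, which were not tested. The ratio of Col4a1 to Col4a2 TPM was 1.40 and 1.36 in Ctrl against 1.31 and 1.25 in WC1 (exact two-sided permutation test, p = 0.333). The endothelial markers, whose cells lay down this membrane along vessels, summed to 589 and 652 CPM in Ctrl against 1169 and 1503 CPM in WC1. Over the 4 libraries this is the same order as for Col4a1 and Col4a2. The sums of the adipocyte markers and of the pericyte and smooth muscle markers had that order too, so it does not single out a cell type. The part of these cells in the result was not tested.

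The 6 type IV genes stand in head-to-head pairs, each pair leaving a shared control region in opposite directions. The main fold changes within each pair had the same sign. All 8 basement membrane chains had that sign, the lowest at 0.05, so any pairing of them would match, and shared control was not tested. Col4a6 changed sign with quantile normalization or without Ctrl 2 or WC1 2, and Col4a5 without WC1 1. Col4a1 (chr8:11198423-11312826, minus strand) and Col4a2 (chr8:11312805-11449287, plus strand) overlap by 22 bases at their starts, and since no source used here states the strand setting of the read counting, reads in those 22 bases cannot be assigned. Between the starts of Col4a4 (chr1:82448423-82586849, minus strand) and Col4a3 (chr1:82586921-82722059, plus strand) lie 71 bases, and between those of Col4a6 and Col4a5 on chromosome X 1308 bases. Log2 fold changes were 0.42 and 0.54 in the first pair, 0.63 and 0.72 for Col4a3 and Col4a4, and 0.15 and 0.05 for Col4a5 and Col4a6. The bases that the first pair shares (chr8:11312805-11312826, plus strand) and those between the second pair (chr1:82586850-82586920, minus strand) are shown from RefSeq windows on GRCm38.p6, 5′ to 3′, with a match to the GC box GGGCGG in capitals, which the second stretch does not hold.
Col4a1 and Col4a2: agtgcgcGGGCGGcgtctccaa
Col4a4 and Col4a3: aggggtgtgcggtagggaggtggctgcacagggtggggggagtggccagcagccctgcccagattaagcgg

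Col4a3 and Col4a4, which form the network of the kidney filter with Col4a5, were near the lower limit of the measurement here. Col4a3 was at 0.424 and 0.368 CPM in Ctrl against 1.11 and 1.21 CPM in WC1, which rests on 29, 32, 68 and 76 reads in that order. All WC1 values were above all control values, and it passed the test (0.63 ± 0.13, adjusted p = 0.035, limma). On recovered reads the edgeR fold change, free of the added 1 CPM, was 1.57 (adjusted p = 0.030). On the TPM matrix it was 0.24 and did not pass (adjusted p = 0.14, limma), and without WC1 2 the adjusted p was 0.058. Col4a4 was at 0.775 and 0.839 CPM in Ctrl against 1.44 and 2.61 CPM in WC1 (0.72 ± 0.21, adjusted p = 0.078, limma). Col4a5 and Col4a6 overlapped between groups. Of the chains attached to the membrane, Col15a1, the most abundant of them, was at 718 and 747 CPM in Ctrl against 827 and 962 CPM in WC1, higher without overlap but within the spread (0.28 ± 0.12, adjusted p = 0.16, limma), and Col18a1, the precursor of endostatin, overlapped at 312 and 334 CPM in Ctrl against 316 and 371 CPM in WC1 (0.08 ± 0.11, adjusted p = 0.60, limma).

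A type VI filament is assembled from Col6a1, Col6a2 and one further chain, in most tissues Col6a3, whose tail is cleaved off as the fragment endotrophin. Col6a1 was at 963 and 1040.0 CPM in Ctrl against 1336 and 1564 CPM in WC1. Both WC1 libraries lay above both controls, 44.8% higher in the mean, and the difference just missed the threshold (0.53 ± 0.14, adjusted p = 0.059, limma). Col6a2 was at 1033 and 1159 CPM in Ctrl against 1469 and 1797 CPM in WC1, in the same order (0.57 ± 0.16, adjusted p = 0.067, limma). Col6a3 was at 619.5 and 596 CPM in Ctrl against 618 and 558 CPM in WC1 and the groups overlapped (-0.05 ± 0.10, adjusted p = 0.76, limma). Its ratio to Col6a1 in TPM was 0.280 and 0.249 in Ctrl against 0.200 and 0.153 in WC1, without overlap, whereas the ratio of Col6a1 to Col6a2 overlapped at 0.875 and 0.841 in Ctrl against 0.853 and 0.816 in WC1 (exact two-sided permutation tests, p = 0.333 and p = 0.667). Col6a1 and Col6a2 are neighbors on chromosome 10, on the same strand and 85161 bases apart. The median over the 6 chains was 0.16, and between 0.060 (without Ctrl 2) and 0.33 (without WC1 1) as libraries were left out. None of them was called by limma, 2 had an unadjusted p under 0.05, edgeR called Col6a1 alone, and DESeq2, the TPM matrix and limma with the replicate block (adjusted p = 0.041 and 0.038) called Col6a1 and Col6a2. Of the chains that can take the place of Col6a3, which are clustered on chromosome 9, Col6a5 overlapped at 118 and 117 CPM in Ctrl against 125 and 108 CPM in WC1 (-0.02), Col6a6 was at 12.6 and 9.64 CPM in Ctrl against 12.8 and 15.4 CPM in WC1 (0.32, adjusted p = 0.21, limma) and Col6a4 overlapped near 1 CPM. The adipocyte markers, all 12 of which were higher in both WC1 libraries than in both controls, summed to 9989 and 11188 CPM in Ctrl against 18067 and 23287 CPM in WC1, and their part in the type VI values was not tested.

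**Figure D3:**
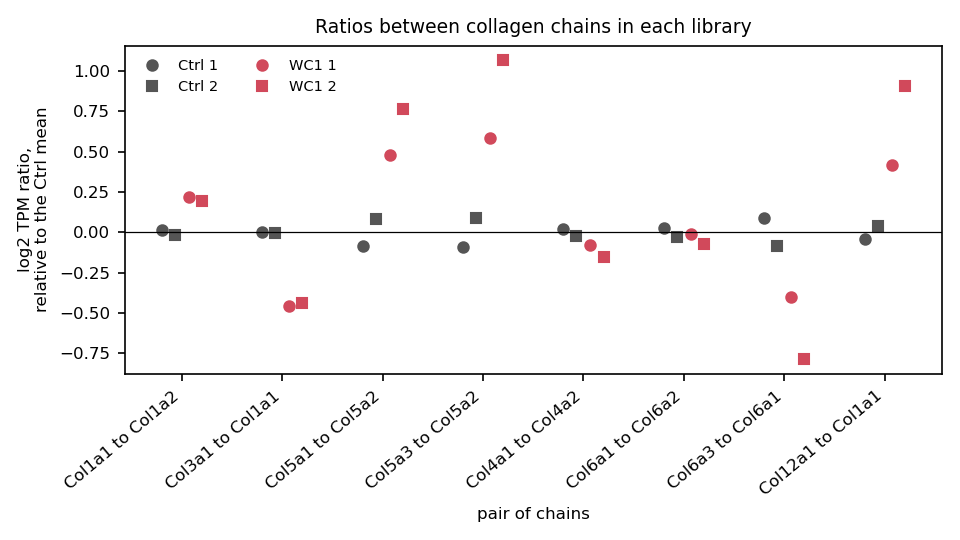
Ratio of TPM between pairs of collagen chains in each library, as log2 relative to the mean log2 ratio of the Ctrl libraries, with grey for Ctrl, red for WC1, circles for replicate 1 and squares for replicate 2. Col3a1 to Col1a1 and Col6a3 to Col6a1 are lower in both WC1 libraries, Col5a3 to Col5a2 and Col12a1 to Col1a1 are higher, and Col6a1 to Col6a2 overlaps.

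The FACIT collagens held the collagen with the smallest p. Col12a1, which links fibrils to their surroundings and is found in tissues under load, was at 23.0 and 23.0 CPM in Ctrl against 37.8 and 39.4 CPM in WC1. The libraries within each group were almost equal and the groups were far apart, 68.0% higher in the WC1 mean (0.72 ± 0.07, adjusted p = 0.013, limma). Col14a1, a close relative that also coats type I fibrils, was at 116 and 108 CPM in Ctrl against 171 and 126 CPM in WC1, and WC1 1 held the high value (0.38 ± 0.16, adjusted p = 0.14, limma). DESeq2 called Col14a1 higher, and edgeR did not. Col16a1 was at 89.6 and 89.5 CPM in Ctrl against 102 and 112 CPM in WC1 (0.25 ± 0.08, adjusted p = 0.080, limma). Col9a3 and Col20a1, at no more than 3.51 CPM, lay lower without overlap and did not pass. The median over the 5 tested FACIT chains was 0.25. It was 0.38 at a mean of at least 5 CPM, and 0.024 without a filter, with the chains near 0 counted in. Of the 5, limma called 1, edgeR 1 and DESeq2 2, beside 17.9%, 17.6% and 27.4% of all genes. The ratio of Col12a1 to Col1a1 in TPM was 0.00802 and 0.00847 in Ctrl against 0.0110 and 0.0155 in WC1, higher in both WC1 libraries than in both controls (exact two-sided permutation test, p = 0.333).

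The largest differences among the called collagens were in chains of low level. Col28a1, a type VI-like collagen with von Willebrand factor A domains that is known from peripheral nerve, was at 4.02 and 5.41 CPM in Ctrl against 10.0 and 10.9 CPM in WC1, with both WC1 libraries well above both controls (1.02 ± 0.15, adjusted p = 0.022, limma). The Schwann cell markers summed to 126 and 126 CPM in Ctrl against 128 and 135 CPM in WC1, a sum carried mainly by Mbp and Scn7a, of which Scn7a was higher in both WC1 libraries than in both controls, and none of the 6 tested was called. Col23a1, a transmembrane collagen, was at 2.90 and 3.53 CPM in Ctrl against 5.19 and 6.78 CPM in WC1 (0.73 ± 0.16, adjusted p = 0.044, limma), but it did not pass without WC1 2, with quantile normalization or without a filter on low values (adjusted p = 0.065, 0.057 and 0.078, limma). Col8a2 was the single collagen called lower in the limma fit. Under other settings more were called lower. Col27a1 was called with a pseudocount of 0.25, at a mean of at least 5 CPM, with median-of-ratios scaling, quantile normalization, the replicate block and DESeq2. Col24a1 was called by edgeR, by DESeq2 and without a filter on low values, and Col8a1 by DESeq2. Col8a2 was at 9.88 and 7.29 CPM in Ctrl against 3.05 and 3.37 CPM in WC1, with both WC1 libraries below both controls (-1.18 ± 0.16, adjusted p = 0.020, limma). Col8a1, its partner in the short-chain network of type VIII, was at 88.8 and 94.7 CPM in Ctrl against 73.5 and 53.6 CPM in WC1 on the same side (-0.54 ± 0.16, adjusted p = 0.074, limma). The ratio of Col8a1 to Col8a2 in TPM was 7.61 and 11.0 in Ctrl against 20.5 and 13.5 in WC1 (exact two-sided permutation test, p = 0.333). Col17a1 was at 0.117 and 0.322 CPM in Ctrl against 0.606 and 0.588 CPM in WC1 and Col26a1 at 1.32 and 0.701 CPM in Ctrl against 0.197 and 0.667 CPM in WC1, both without overlap and within the spread, and Col7a1, which anchors epithelia, overlapped near 3 CPM.

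The 9 collagens that did not reach the filter were Col2a1, Col11a1, Col9a1, Col9a2, Col19a1, Col22a1, Col10a1, Col13a1 and Col25a1. Most belong to cartilage, and none exceeded 0.508 CPM in any library. Col9a1 had no read in any of the 4 libraries, where 3 reads correspond to between 0.0345 and 0.0492 CPM. Among the tested collagens, the ones just inside the threshold were Col23a1 and Col5a3, at adjusted p of 0.044 and 0.043, and the one just outside was Col27a1, at 0.051 (limma).

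Summed over all chains and corrected for length, collagen mRNA was 5996 and 6111 TPM in Ctrl against 7351 and 7397 TPM in WC1. The WC1 mean was 21.8% higher than the Ctrl mean, against 9.53% higher when CPM was summed, and the exact two-sided permutation test gave the smallest p it can, 0.333. The composition differed along with the total. Of collagen TPM, types I, III and V held 57.2% and 54.7% in Ctrl against 50.7% and 41.6% in WC1. Basement membrane collagens held 21.6% and 22.8% in Ctrl against 24.3% and 29.0% in WC1, and type VI held 19.2% and 20.6% in Ctrl against 23.0% and 27.6% in WC1. The fibrillar share was thus lower, and the other 2 shares higher, in both WC1 libraries than in both controls (p = 0.333 each, exact two-sided permutation test), and WC1 2 lay further out than WC1 1 in all 3. The FACIT share was 1.22% and 1.17% in Ctrl against 1.42% and 1.32% in WC1. In TPM itself the fibrillar sum overlapped between groups, at 3430.4 and 3339.7 TPM in Ctrl against 3724 and 3076 TPM in WC1, while the basement membrane sum was 1294 and 1392 TPM in Ctrl against 1785 and 2142 TPM in WC1 and the type VI sum 1149.8 and 1257 TPM in Ctrl against 1693 and 2043 TPM in WC1. The same 10 chains held between 91.4% and 91.6% of collagen TPM in every library, with Col3a1 first in each. Col1a2 ranked 2 in both Ctrl libraries and 4 and 6 in the WC1 libraries, while Col6a2 ranked 4 and 3 in Ctrl against 2 and 2 in WC1. The ratio of Col4a1 to Col3a1 was 0.286 and 0.322 in Ctrl against 0.424 and 0.644 in WC1.

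**Figure D4:**
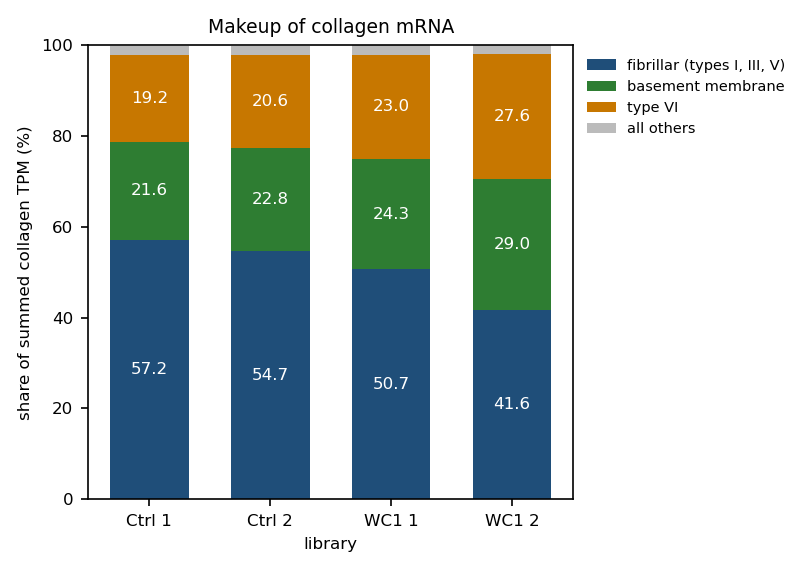
Share of summed collagen TPM held by the fibrillar chains of types I, III and V, the basement membrane chains, the type VI chains and all other collagens, as stacked bars in percent for each library. The fibrillar share is 57.2% and 54.7% in Ctrl against 50.7% and 41.6% in WC1.

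The WC1 libraries were not equally far from the controls. WC1 2 lay further from the Ctrl mean than WC1 1 in 27 of the 35 tested collagens, and in 9 the WC1 libraries lay on opposite sides of it, Col1a1 and Col1a2 among them. Neither count was made over all genes, so these counts do not set the collagens apart. Over all genes, the replicates differed beyond counting noise, with a chi-square per degree of freedom of 35.3 between the Ctrl and 87.4 between the WC1 libraries. WC1 2 also lay further out in the sums of the macrophage and adipocyte markers, with macrophage genes at 24271 and 21673 CPM in Ctrl against 15107 and 9486 CPM in WC1. The fibroblast and progenitor markers summed to 5557 and 5873 CPM in Ctrl against 6198 and 5817 CPM in WC1, a sum dominated by Gsn, and overlapped between groups. The part of these cells in the collagen values was not tested.

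The genes that process collagen were described in 8 lists, together 89 genes of which 82 were tested. In these lists 10 genes were higher and 19 lower, 35.4% against 17.9% of all genes tested, with a median of -0.15. The lists were written by hand with earlier results of these data known. The difference between these shares may come from that choice and is not a test of the lists. Without Ctrl 1 or without Ctrl 2, where 6 and 12 of all genes passed, none of the 82 did. At an unadjusted p under 0.05 there were then 26 and 33 of them, beside 18.6% and 22.1% of all genes (limma), and without WC1 1 54 were called, beside 36.7%. The clearest group was breakdown, in which 7 of 12 genes were lower and none higher, with a median of -0.59. Mmp3 (stromelysin) was at 82.0 CPM or more in both Ctrl libraries against 18.9 and 15.6 CPM in WC1 (-2.33 ± 0.14, adjusted p = 0.0062, limma), with both WC1 libraries far below both controls. The collagenase Mmp13 was at 19.7 and 17.1 CPM in Ctrl against 5.24 and 2.49 CPM in WC1 (-2.05 ± 0.29), the gelatinase Mmp2 at 465 and 462 CPM in Ctrl against 277 and 198 CPM in WC1 (-0.98 ± 0.17) and the lysosomal collagen protease Ctsk at 740.4 and 694 CPM in Ctrl against 405 and 237 CPM in WC1 (-1.21 ± 0.26), each without overlap and with an adjusted p between 0.020 and 0.040 in limma. Mmp14, which activates Mmp2 at the cell surface, the stromal peptidase Fap and Pepd, which splits the proline dipeptides left from collagen, were lower at -0.64, -0.51 and -0.51. Mrc1, a receptor that takes up collagen, was lower too (-0.89), as was Antxr1 (-0.47). Mrc1 is in the macrophage list as well and Fap in the fibroblast list, both lists with lower members, and the part of these cells was not tested.

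For the counts of partner genes that follow, the share of all genes tested was 7.71% called lower and 10.2% called higher. Of 15 enzymes that modify the chains inside the cell, 5 were lower and 1 higher. P4ha1, a prolyl hydroxylase needed for a stable helix, was at 112 and 122 CPM in Ctrl against 85.4 and 85.2 CPM in WC1 (-0.45 ± 0.07, adjusted p = 0.024, limma), and Crtap, a subunit of the prolyl 3-hydroxylase complex, at 113 and 116 CPM in Ctrl against 82.8 and 82.1 CPM in WC1 (-0.47 ± 0.06, adjusted p = 0.019, limma). Plod2, which hydroxylates the lysines used in stable cross-links, fell by 0.62, and P3h3 and P3h4, which work with lysyl hydroxylase, fell by 0.50 each. P3h2, a prolyl 3-hydroxylase known from type IV collagen, was the one that rose, at 3.29 and 3.06 CPM in Ctrl against 5.38 and 6.66 CPM in WC1 (0.74 ± 0.14, adjusted p = 0.030, limma). Of 9 folding and export genes 1, Rcn3, was lower (-0.38), and Serpinh1, the collagen chaperone Hsp47, was at 367 and 433 CPM in Ctrl against 500.1 and 589.6 CPM in WC1 (0.45, adjusted p = 0.079, limma).

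The enhancers of propeptide cleavage moved in opposite directions. Pcolce, which helps to remove the C-terminal propeptide of fibrillar collagen, was at 233 and 225 CPM in Ctrl against 148 and 125 CPM in WC1 (-0.75 ± 0.10, adjusted p = 0.019, limma). Pcolce2, its paralog, was at 40.9 and 47.4 CPM in Ctrl against 101 and 150.1 CPM in WC1 (1.46 ± 0.20, adjusted p = 0.019, limma). Both WC1 libraries lay below the controls for the one and above them for the other. The propeptidase Tll1 was higher (0.75), 3 of 7 in all. Of 5 cross-linking genes, Lox itself was higher, at 106 and 114 CPM in Ctrl against 168 and 146 CPM in WC1 (0.51, adjusted p = 0.031, limma), and the others did not pass.

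Among 9 tested partners of fibril assembly, 2 rose and 2 fell. Sparc, a collagen-binding protein of basement membranes, was at 1305 and 1533 CPM in Ctrl against 2592 and 2984 CPM in WC1 and Prelp, which anchors basement membrane to fibrils, at 689 and 929 CPM in Ctrl against 1434 and 1941 CPM in WC1 (0.98 and 1.06, adjusted p = 0.028 and 0.038, limma). The fibril-spacing proteoglycans Dcn and Lum were lower, Dcn at 1646 and 1676 CPM in Ctrl against 1147 and 1046 CPM in WC1 and Lum at 523 and 513 CPM in Ctrl against 372 and 270.1 CPM in WC1 (-0.60 and -0.71, adjusted p = 0.038 and 0.047, limma). Of 12 tested receptors and uptake genes, Ddr1 and Itga1, the receptor chain that prefers type IV collagen, rose by 1.02 and 1.21. In the TGF-beta and myofibroblast list of 13 genes, Acta2 (1.19) and Tnc (1.20) were higher, Postn (-0.83) was lower, and Tgfb1 was at 189 and 197 CPM in Ctrl against 163 and 130.0 CPM in WC1 (-0.40, adjusted p = 0.082, limma). Acta2 also marks vascular smooth muscle, whose markers, Acta2 itself and Tagln of the same list included, summed to 445 and 454 CPM in Ctrl against 662 and 737 CPM in WC1, and the part of these cells was not tested.

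**Figure D5:**
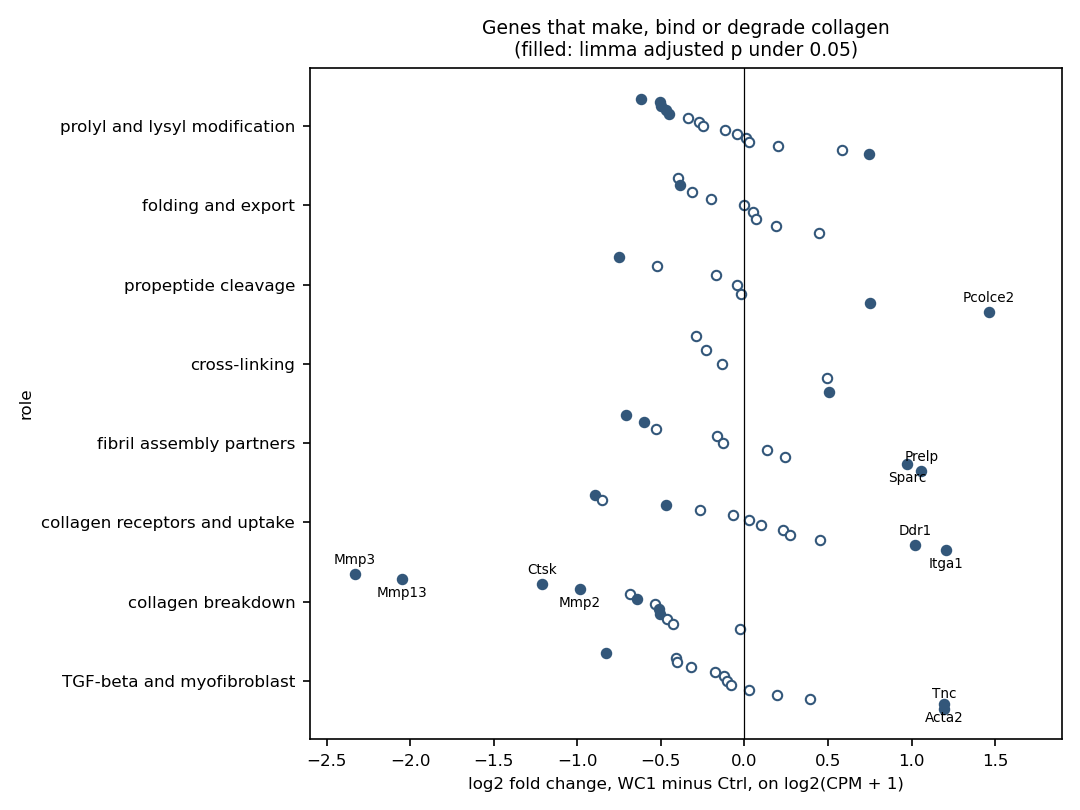
Log2 fold change, WC1 minus Ctrl on log2(CPM + 1), of each tested gene that modifies, exports, cleaves, cross-links, binds or degrades collagen, or belongs to the TGF-beta and myofibroblast list, by role on the vertical axis, with filled points for limma adjusted p under 0.05. All 12 breakdown genes lie to the left of 0, 7 of them filled, and the other roles hold filled points on both sides or a single one.

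The start regions of the collagens differed from the average of all genes in composition. RefSeq windows, from 250 before to 50 after the annotated start, matched 35 of the 44 collagens, with 38 windows in all. The GC box GGGCGG, read on both strands, was found in 60.5% of collagen windows and in 35.7% of all windows, whereas CCAAT was found in 34.2% and 37.4% and TATAAA in 13.2% and 13.6%. Median GC content was 59.8% against 52.7%. To show a fibrillar pair that lay on opposite sides, the 100 bases before the RefSeq start are given for Col3a1 (chr1:45311438-45311537, plus strand) and Col5a3 (chr9:20815068-20815167, minus strand) on GRCm38.p6, 5′ to 3′, with matches to these letters, or to their reverse complement, in capitals. Col3a1 holds none in this stretch and Col5a3 holds the GC box in its reverse complement.
Col3a1: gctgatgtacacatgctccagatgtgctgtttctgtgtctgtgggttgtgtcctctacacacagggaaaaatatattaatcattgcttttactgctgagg
Col5a3: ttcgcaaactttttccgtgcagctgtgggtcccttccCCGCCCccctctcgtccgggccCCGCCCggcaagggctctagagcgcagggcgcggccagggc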

How the data were processed

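RNA was purified from epididymal adipose tissue of 2 Ctrl and 2 WC1 samples and made into directional poly(A) libraries. The authors deposited a CPM matrix, here treated as a signal, and a TPM matrix. The submitters' processing notes name fastp, HISAT2, StringTie and mm10. Their roles, the annotation and the strand setting of the counter are stated in no source used here. CPM columns summed to between 97.6% and 105% of the nominal total and 100% of their values were whole multiples of 1 read (tolerance 0.01 read), so reads were recovered (61465029 to 90965297 per library) and 3 reads were taken as the floor. The floors cover counting error only. Each value after ± is the standard error of the limma fit, which rests on the spread between libraries.

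The test took genes that reached 0.5 CPM, the cutoff level of the study, in 2 or more libraries (14106 kept, 10315 left out) and used limma 3.58.1 in R 4.3.3 on log2(CPM + 1), with an abundance trend, the group as the only term, a two-sided test and Benjamini-Hochberg adjustment over all tested genes at 0.05. Single values were compared by exact permutation. edgeR 4.0.16 (quasi-likelihood) and DESeq2 1.42.0 on recovered reads, other pseudocounts (0.25 and 4), filters and scalings, the TPM matrix, the replicate block and leaving out each library were alternatives. Scripts were tested on simulated data. The members, classes, partner lists and marker lists were chosen by hand with earlier results of these data known. Every tested collagen could be named, partner genes where they passed the threshold or had the smallest p of their list, and others (Serpinh1, Tgfb1 and Gsn) were named after their values were seen. Coding exons came from GENCODE M21 (GRCm38) and start regions from RefSeq (GRCm38.p6). Protein sequences were not used here, and the planned description of triplets was made on codons instead.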

Additional observations from a re-analysis of the deposited data

How the results depend on the processing

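Every one of the 35 tested collagens kept its direction under at least 8 of its alternatives, and of all values of single collagens under the alternatives 388 kept their side of the threshold and their direction, 47 newly passed, 18 no longer passed and 25 changed sign. Main counts were 2531 genes called, 5 collagens higher and 1 lower, and 29 partner genes. Without a filter on low values they were 1320, 3, 2 and 11, at a mean of at least 5 CPM 3 collagens were higher and 2 lower, and with DESeq2 on recovered reads the counts were 3861, 12, 4 and 44. The TPM matrix, with 2637 genes called (18.7% of all tested), gave 10 collagens higher and 1 lower. edgeR, with 2483 genes called, gave 7 higher and 2 lower. With a pseudocount of 0.25, median-of-ratios scaling or quantile normalization 2 were lower. Leaving out each library in turn gave between 6 and 5172 genes called, between 0 and 13 collagens higher, between 0 and 5 lower and between 0 and 54 partner genes, the lowest without Ctrl 1 or Ctrl 2 and the highest without WC1 1, and total collagen TPM in WC1 was between 20.7% and 23.0% higher than in Ctrl. The lone library of a group was assumed to vary like the others.

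The replicate block gave 3266 genes called, 7 collagens higher, Col6a1 and Col6a2 in addition, 2 lower, Col27a1 in addition, and 36 partner genes. The labels do not say that replicate numbers pair mice: deviations of same-numbered libraries correlated at 0.19 over 14106 genes, and 2 pairs are too few to settle it.

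Among class medians, the fibrillar one (-0.02) changed sign to 0.0016 with median-of-ratios scaling, to 0.014 in both edgeR and DESeq2 and to 0.12 on the TPM matrix, where the median of all genes stands at 0.10, and ranged from -0.22 to 0.19 as libraries were left out. The basement membrane median (0.35) was 0.26 with a pseudocount of 4 and ranged from 0.32 to 0.46, the type VI median (0.16) was 0.32 at a mean of at least 5 CPM and 0.25 on the TPM matrix and ranged from 0.060 to 0.33, and the FACIT median (0.25) was 0.38 at that filter, 0.30 with quantile normalization and 0.39 on the TPM matrix and ranged from 0.16 to 0.25. These medians are over the chains that passed the main filter where a setting kept them. Without a filter on low values, and with the FACIT chains near 0 counted in, the FACIT median was 0.024.

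The sign changes were all in collagens that were not called. On the TPM matrix, which sits higher as a whole, they were Col1a2 (0.020), Col6a3 (0.078), Col6a5 (0.12) and Col11a2 (0.018). With quantile normalization they were Col4a6 (-0.042), Col6a3 (0.083), Col6a4 (-0.052), Col6a5 (0.036) and Col7a1 (-0.015). Col6a5 was at 0.0018 with median-of-ratios scaling, 0.0045 in edgeR and 0.0044 in DESeq2, and Col6a4 at -0.0042 with a pseudocount of 0.25. Without WC1 1 they were Col1a1 (-0.13), Col4a5 (-0.11) and Col7a1 (-0.19), and without WC1 2 Col1a2 (0.080), Col4a6 (-0.0031), Col6a3 (0.026), Col6a4 (-0.20), Col6a5 (0.087) and Col18a1 (-0.029). Without Ctrl 2 they were Col4a6 (-0.087) and Col6a4 (-0.11), and without Ctrl 1 Col11a2 (0.019). As libraries were left out, the other ends of the ranges were -0.32 for Col1a2, 0.40 for Col4a5, 0.18 for Col4a6, -0.12 for Col6a3 and Col6a5, 0.20 for Col6a4, -0.16 for Col11a2 and 0.20 for Col18a1. Apart from the scalings and the libraries named, the cause was not tested. There were 2 libraries a group, and over all genes their spread exceeded counting noise. How far read depth limits the tests was not tested, and chains under 1 CPM such as Col4a3 rest on few reads.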
